A study of Mus musculus with 4 samples.

Results

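Calcineurin-NFAT signaling genes and the fiber-type regulators that work beside it were examined in tibialis anterior (TA) muscle of young and old mice. The group held 10 genes, picked out of the tables by symbol: the calcineurin subunits Ppp3ca, Ppp3cb and Ppp3r1, the transcription factors Nfatc1 and Nfatc2, the calcineurin regulators Rcan1 and Myoz2, and the fiber-type transcription factors Prox1, Tead1 and Tbx15. All 10 of these genes had a value in all 4 samples, among 20340 gene labels. The samples were TA muscles of wild-type C57BL/6 mice aged 20 months (Old 1 and Old 2) and 3 months (Young 1 and Young 2), profiled by mRNA-seq to find genes that differ in age-related muscle atrophy. The mice were untreated and described as healthy, their sex was chosen at random and is not given per sample, and the labels do not say whether a sample was 1 mouse or a pool.

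Calcineurin is a phosphatase that calcium switches on in active muscle fibers. Once active, the enzyme removes phosphates from NFAT factors, which enter the nucleus and take part in the expression of slow-fiber genes. Rcan1 is at once an inhibitor of calcineurin and a target gene of NFAT, and in skeletal muscle the pathway is best known for the choice between slow, fatigue-resistant fibers and fast, glycolytic fibers.

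Values are FPKM, the sequenced fragments per unit of transcript length and of mapped fragments, so levels of different genes can be compared per length. FPKM carries no read counts, so sequencing depth is unknown here and counting error cannot be stated. FPKM of Old 1 and Young 2 were roughly double those of Old 2 and Young 1 for most genes. Over genes with at least 10 FPKM in both samples, the median log2 ratio was 0.98 for Old 1 over Old 2 and 0.96 for Young 2 over Young 1, with a robust SD across genes of 0.05 and 0.06. Between the ages the robust SD was 0.38 for Old 1 over Young 2 and 0.37 for Old 2 over Young 1. The p-values below measure only the spread between the 2 samples of an age, which may be technical. For each gene limma takes that spread in part from the other genes. The study calls its mRNA-seq experiments independent, but neither it nor the labels say whether these samples were separate mice. For the comparison of ages each sample was scaled to the same median, and deposited values are given beside the scaled ones.

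Several genes that every muscle fiber uses were listed at 0: Ckm in all 4 samples, Ttn in both old samples, and Neb in Old 2 and Young 1. A value of 0 in these files is therefore described only as listed at 0. The other muscle markers, Mb, Tnnc2, Pygm and Actn3, had values in every sample, the lowest being 759.98 FPKM for Actn3 in Young 1. Some of these very abundant genes differed within an age by far more than the doubling above, as Tnnc2 did with 35474 FPKM in Old 1 and 3469 in Old 2. The loci listed at 0 also differed, with 5223 in Old 1 and 9558 in Old 2, and 9452 in Young 1 against 5335 in Young 2, while the ratio between samples of an age was 1.91 to 2.30 for the tested members. The labels name the tissue only as muscle, and the study's methods name the TA.

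Rcan1 is known as a target gene of NFAT, and its 2 annotated promoters are printed here for that reason. The RefSeq windows (build GRCm38.p6, minus strand) hold the 250 bases before each start, and capitals mark GGAAA, the core that NFAT factors bind, or its reverse complement TTTCC.
Rcan1 start within the gene, chr16:92400079-92400328: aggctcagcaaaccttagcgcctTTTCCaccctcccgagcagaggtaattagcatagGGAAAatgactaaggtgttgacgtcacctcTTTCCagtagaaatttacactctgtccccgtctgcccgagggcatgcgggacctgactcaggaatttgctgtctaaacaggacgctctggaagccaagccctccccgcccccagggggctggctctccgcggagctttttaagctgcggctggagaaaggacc
Rcan1 first start, chr16:92466170-92466419: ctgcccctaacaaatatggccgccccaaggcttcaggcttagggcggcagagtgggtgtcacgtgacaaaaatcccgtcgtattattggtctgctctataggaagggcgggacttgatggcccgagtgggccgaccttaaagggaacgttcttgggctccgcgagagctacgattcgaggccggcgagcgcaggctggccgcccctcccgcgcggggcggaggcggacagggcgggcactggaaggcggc
The window within the gene held 3 matches and the first window held 0. At least 1 match was found in 55.6% and at least 3 in 6.39% of 32851 promoter windows of the same length. Windows were given for 6 of the 10 genes (9 windows), and those of Ppp3cb and the first start of Nfatc2 also held 3 matches each. CATTCC, the motif of TEAD factors, was found in none of the 9 windows on either strand, against 12.6% of all windows. A match is a description of the letters only, and the FPKM of Rcan1 covers transcripts from both starts together.

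Levels spanned more than 2 orders of magnitude across the 10 genes and kept nearly the same order in every sample. Ppp3cb was highest in all 4 samples and was followed by Ppp3ca, Ppp3r1 and Tbx15, then Myoz2, Tead1, Rcan1, Nfatc1, Nfatc2 and Prox1. The place of Ppp3ca was the one difference in that order: it stood next to Ppp3cb in both old samples and below Ppp3r1 and Tbx15 in both young samples. Among neighbours in that order, the scaled FPKM of Ppp3r1 (78.9 and 85.45) and Tbx15 (74.45 and 80.25) overlapped between the old samples, and that of Ppp3cb (91.2 and 87.35) and Ppp3r1 (90.2 and 82.4) between the young samples. In the plot of levels by sample the pairs of points for one age lie close together for every gene except Prox1.

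**Figure D1:**
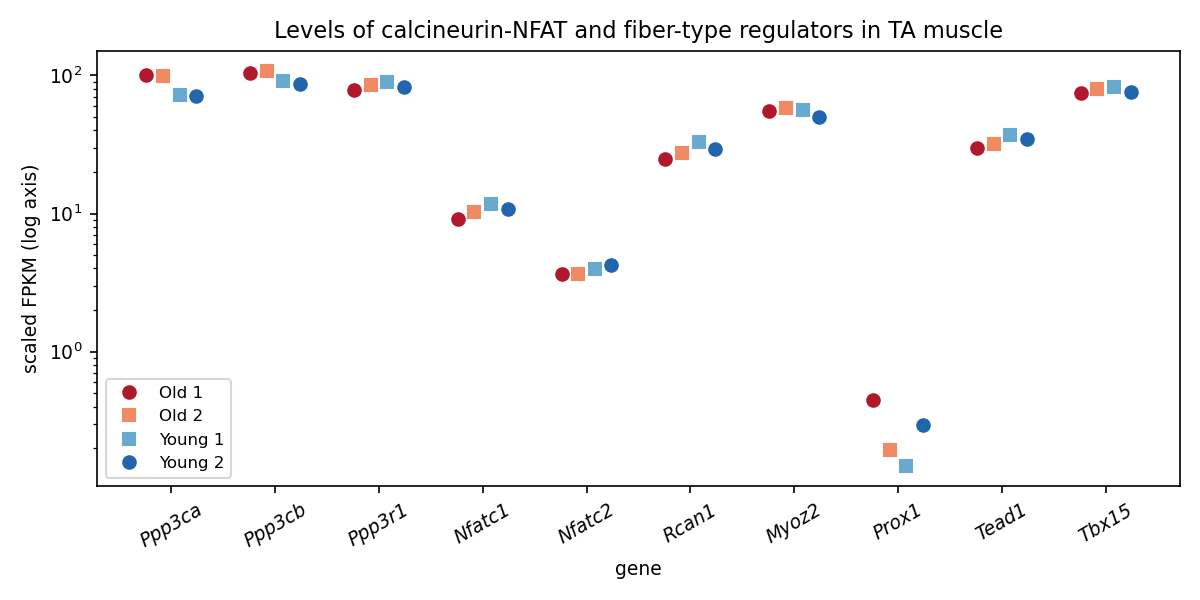
Scaled FPKM (log axis) of the 10 genes in Old 1, Old 2, Young 1 and Young 2, 1 point per sample. Ppp3ca sits at 100.9 and 99.6 in the old samples, above 72.2 and 71.4 in the young ones, and Prox1 is at 0.448 or less in all 4 samples.

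Of the 10 genes, 9 reached the minimum of 1 FPKM in at least 2 samples and were tested, and 1 of them, Ppp3ca, rose in old muscle at an adjusted p under 0.05 (limma with Benjamini-Hochberg adjustment over 10266 genes). None fell. The 2 of 9 with an unadjusted limma p under 0.05 were Ppp3ca and Ppp3cb, both higher in old muscle. The share of all genes at that unadjusted cutoff was not counted, so nothing is read from the 2 of 9. Over all genes tested, 12.6% had an adjusted p under 0.05, 5.06% higher and 7.5% lower in old muscle. The 1 of 9 past that adjusted threshold was therefore close to the share of genes at large. The median log2 fold change on the log2(scaled FPKM + 1) scale was -0.07 over the 9 members and -0.01 over all genes tested, and the median absolute log2 fold change was 0.20 and 0.22. Fits that left out 1 sample also differed in the genes tested (7842 without Old 1 and 7828 without Young 2, against 10266). What moved their calls was not tested. Over all genes the number of calls was 1289 with all 4 samples and moved widely in those fits. Among the members it was 0 whichever sample was left out. With 2 samples against 2, an exact permutation test of a single gene gives no two-sided p under 0.333. How often scaled old and young values lie apart was not counted over all genes. Nothing particular to a gene is read from such a separation where it is given below.

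Of the 3 calcineurin subunits, the catalytic subunit Ppp3ca rose in old muscle, and the other catalytic subunit and the regulatory subunit did not pass the test. Ppp3ca, the alpha isoform of the catalytic subunit, lies on chromosome 3 from 136669714 to 136937727 on the plus strand (GRCm38). Its deposited FPKM was 148 in Old 1 and 67.6 in Old 2, against 49.5 in Young 1 and 105 in Young 2. Both old samples lay above both young samples once scaled, at 100.9 and 99.6 against 72.2 and 71.4 scaled FPKM. Its log2 fold change was 0.48, with SE the standard error (limma SE 0.06, adjusted p = 0.0349). In the samples of like FPKM scale, the ratio of deposited values was 1.41 for Old 1 over Young 2 and 1.36 for Old 2 over Young 1. The adjusted p from limma was 1.00 with the deposited values unscaled, 0.0646 with quantile normalization and 0.06 without the trend, and 0.111, 0.433, 0.24 and 0.0805 without Old 1, Old 2, Young 1 and Young 2, while the log2 fold change stayed between 0.47 and 0.49.

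Ppp3cb, the beta catalytic isoform, lies on chromosome 14 from 20499364 to 20546573 on the minus strand. The files give it a locus that also carries the symbols Usp54 and 1810062O18Rik, so reads at its borders may be shared and its level is uncertain to that degree. Deposited FPKM of Ppp3cb was 151 in Old 1 and 73.6 in Old 2, against 62.5 in Young 1 and 128 in Young 2. Scaled values of both old samples, 103 and 108.5, were above those of both young samples, 91.2 and 87.35. The log2 fold change of 0.24 (standard error 0.07) did not pass the threshold (adjusted p = 0.106 from limma), although the ratio was 1.18 in both Old 1 over Young 2 and Old 2 over Young 1.

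Ppp3r1, which encodes the calcium-binding regulatory subunit calcineurin B, lies on chromosome 11 from 17159298 to 17200380 on the plus strand. Its deposited FPKM was 116 in Old 1 and 57.97 in Old 2, against 61.8 in Young 1 and 121 in Young 2. The scaled groups overlapped, and the log2 fold change was -0.07 (limma SE 0.09, adjusted p = 0.715).

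Ratios between genes of 1 sample do not depend on the scale of that sample, so they were also compared, a choice made after the values were seen. The sum of Ppp3ca and Ppp3cb over Ppp3r1 was 2.59 in Old 1 and 2.435 in Old 2, against 1.81 in Young 1 and 1.93 in Young 2. Both old ratios were above both young ratios without any scaling. Ppp3ca made up 49.4% of the summed FPKM of Ppp3ca and Ppp3cb in Old 1 and 47.9% in Old 2, against 44.2% in Young 1 and 44.99% in Young 2. The catalytic isoform outside the group, Ppp3cc, held 4.79% and 4.98% of the 3 catalytic isoforms in the old samples and 5.62% and 5.36% in the young ones. Ppp3ca over its inhibitor Rcan1 was 4.06 and 3.65 in the old samples, against 2.21 and 2.435 in Young 1 and Young 2. The old and young values did not overlap in these 4 ratios, which were not tested. All 4 contain Ppp3ca, so they are not separate observations, and overlap was not counted over ratios of genes at large. Of the ratios given below, Nfatc1 over Nfatc2 and Myoz1 over Myoz2 overlapped, and Tbx15 over Tead1 did not.

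**Figure D2:**
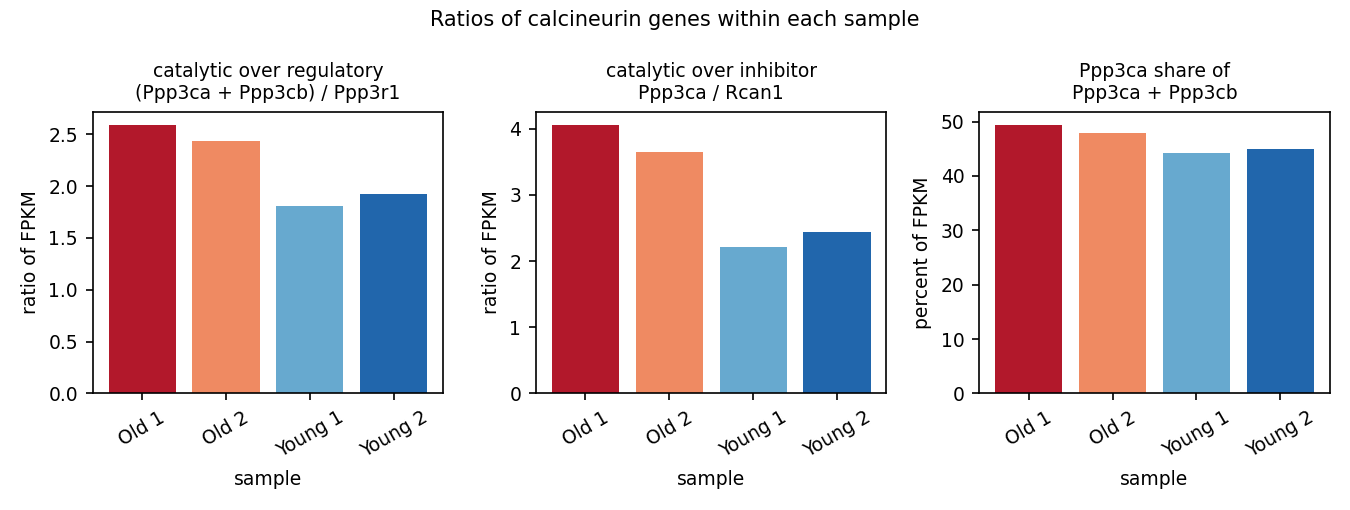
Ratios of FPKM within each of the 4 samples, with the sample on the x axis: catalytic over regulatory calcineurin subunits, Ppp3ca over Rcan1, and the share of Ppp3ca in percent. Bars start at 0 and show 1 value per sample, and the 2 old bars are above the 2 young bars in each panel (2.59 and 2.435 against 1.81 and 1.93 in the first).

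Neither NFAT factor passed the test. Nfatc1, the NFAT factor known for its nuclear entry in slow fibers, lies on chromosome 18 from 80606205 to 80713071 on the minus strand. Its deposited FPKM was 13.4 in Old 1 and 6.93 in Old 2, against 8.08 in Young 1 and 15.7 in Young 2. After scaling both old samples were below both young samples, and the log2 fold change was -0.20 (limma SE 0.09, adjusted p = 0.235). The ratios were 0.854 for Old 1 over Young 2 and 0.858 for Old 2 over Young 1.

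Nfatc2, on chromosome 2 from 168476410 to 168601657 on the minus strand, encodes a related factor known in T cells and in the growth of young myotubes. Its level was the lowest of the tested members, with 5.31 FPKM in Old 1 and 2.48 in Old 2, against 2.73 in Young 1 and 6.27 in Young 2. The scaled old values lay below the young ones, and the log2 fold change was -0.14 (limma SE 0.06, adjusted p = 0.219). The ratio of Nfatc1 to Nfatc2 overlapped between ages, at 2.53 and 2.79 in the old samples and 2.96 and 2.51 in Young 1 and Young 2.

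Rcan1, the feedback inhibitor of calcineurin, lies on chromosome 16 from 92391951 to 92466169 on the minus strand. It had 36.4 FPKM in Old 1 and 18.5 in Old 2, against 22.4 in Young 1 and 43.1 in Young 2. Both old samples lay below both young samples after scaling, by a log2 fold change of -0.24 (standard error 0.09), the lowest of the members and short of the threshold (adjusted p = 0.189 from limma). Old 1 over Young 2 was 0.845 and Old 2 over Young 1 was 0.826.

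Myoz2, also called calsarcin-1, ties calcineurin to alpha-actinin at the Z-disc and is known from the heart and slow fibers. It lies on chromosome 3 from 123006206 to 123035003 on the minus strand. Myoz2 measured 81.5 FPKM in Old 1 and 39.3 in Old 2, against 38.8 in Young 1 and 73.97 in Young 2, and the scaled groups overlapped. The log2 fold change was 0.09 (limma SE 0.09, adjusted p = 0.613). Myoz1, its fast-fiber relative, was 25.4 and 19.45 times Myoz2 in the old samples and 22.1 and 30.65 times Myoz2 in Young 1 and Young 2, again with overlap.

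**Figure D3:**
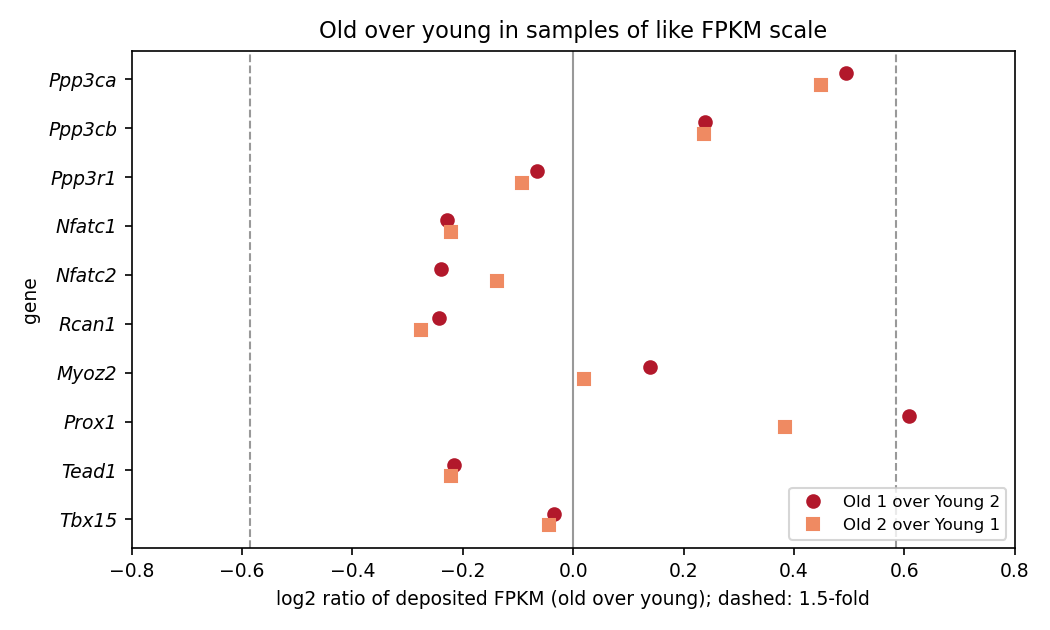
log2 ratio of deposited FPKM, old over young, for each of the 10 genes in the 2 pairs of samples with like FPKM scale, with dashed lines at 1.5-fold. Ppp3ca is at 1.41-fold and 1.36-fold, and Rcan1 at 0.845 and 0.826, and no gene is past 1.5-fold in both pairs.

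None of the fiber-type transcription factors passed the test. Tead1, which binds the MCAT elements of muscle genes and is known to favor slow-fiber gene expression, lies on chromosome 7 from 112679356 to 112906784 on the plus strand. It had 43.99 FPKM in Old 1 and 21.7 in Old 2, against 25.3 in Young 1 and 51.1 in Young 2. Both old samples were lower after scaling, with ratios of 0.861 and 0.857 in the 2 pairs of samples and a log2 fold change of -0.20 (limma SE 0.07, adjusted p = 0.161). A second entry with the same symbol and coordinates was listed at 0 in Old 2 and Young 1 and added nothing to their sums.

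Tbx15, a T-box factor of glycolytic fibers, lies on chromosome 3 from 99240348 to 99354260 on the plus strand. Tbx15 measured 109 FPKM in Old 1 and 54.4 in Old 2, against 56.1 in Young 1 and 112 in Young 2. The scaled groups overlapped, and the log2 fold change of -0.03 (limma SE 0.08, adjusted p = 0.924) was the smallest of the members. Tbx15 over Tead1 was 2.48 and 2.51 in the old samples and 2.21 and 2.19 in the young ones, without overlap.

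Prox1, a homeobox factor of slow fibers that is also a marker of lymphatic endothelium, lies on chromosome 1 from 190118035 to 190170827 on the minus strand. It had 0.656 FPKM in Old 1 and 0.132 in Old 2, against 0.101 in Young 1 and 0.431 in Young 2. No sample reached 1 FPKM and Prox1 was not tested. The ratios were 1.52 for Old 1 over Young 2 and 1.31 for Old 2 over Young 1, but Old 1 was 4.96 times Old 2 and Young 2 was 4.25 times Young 1, and the scaled groups overlapped.

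No member changed by 1.5-fold the same way in both pairs of samples with like scale (0 of 10), and 14.5% of the tested genes did. Counting direction only, 4 of the 10 were above 1 in both pairs and 6 were below 1 in both. Prox1, below 1 FPKM in every sample, was among those above. Direction was not counted over all genes, so nothing particular to the members is read from it. For the 9 tested members the log2 ratios of the 2 pairs differed by at most 0.12. In the plot of fold changes under each way of fitting, Ppp3ca, Ppp3cb and Myoz2 stay above 0 in all 15 fits. Nfatc1, Nfatc2, Rcan1 and Tead1 stay below 0 in all 15. Fits that changed only the filter, the trend or the blocks have the same fold change by design, and all fits reuse the same samples. A kept direction is therefore not separate evidence.

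**Figure D4:**
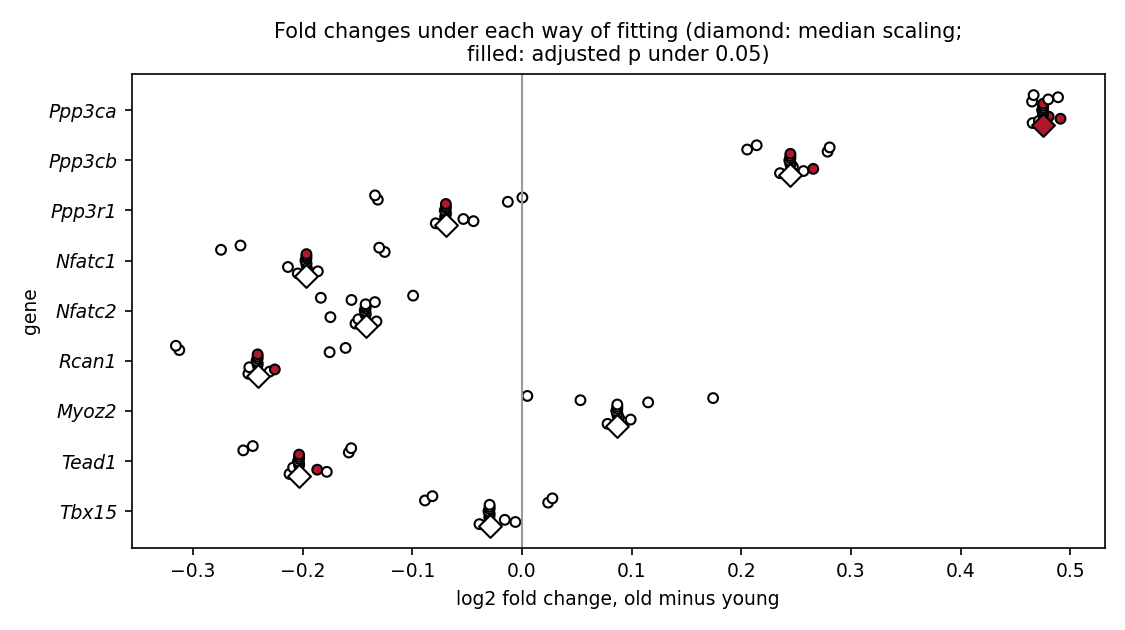
log2 fold change, old minus young, of the 9 tested members (y axis) under 15 ways of fitting, with a diamond for the fit after median scaling and filled symbols for an adjusted p under 0.05. Ppp3ca stays between 0.47 and 0.49 and is filled in 7 of the 15 fits, and Myoz2, Nfatc2 and Tbx15 are filled in none.

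Markers of other cell types were summed in the same samples. NFAT factors are also expressed in endothelium and leukocytes. The summed scaled FPKM of 4 endothelial markers was 41.6 and 45.15 in the old samples and 55.75 and 50.25 in the young ones, and 1 of the 4 tested, Tie1, fell (adjusted p = 0.0425 from limma). The 7 macrophage and leukocyte markers summed to 13.0 and 10.4 against 16.9 and 19.4, 1 of 3 tested fell, and 1 (Cd79a) was listed at 0 in Young 1. Fibroblast markers (6 of 6 with a value) summed to 122 and 136 against 193 and 178, with 3 of 6 tested lower. Those 3 were the collagens Col1a1, Col1a2 and Col3a1, whereas Dcn, at 81.8 and 91.2 against 74.35 and 65.95 scaled FPKM, and Pdgfra had higher values in both old samples and did not pass. Schwann cell and nerve markers (4 of 6) summed to 18.4 and 18.2 against 25.45 and 24.9, with 1 of 2 tested lower. Lymphatic markers (4 of 5) summed to 2.65 and 1.71 against 2.81 and 3.70, with none of 2 tested past the threshold. The sums of adipocyte markers (5 of 5) ran from 224 to 247 in old and from 241 to 268 in young muscle, and those of satellite cell markers (4 of 5) from 1.80 to 3.23 and from 1.53 to 2.87, and both overlapped. Fabp4 made up most of the adipocyte sum, and Adipoq, at 5.80 and 4.38 against 1.999 and 2.93 scaled FPKM, was higher in both old samples without passing (limma adjusted p = 0.0893). The part of these cells in the values of the members was not tested, and fewer cells of a type and less RNA per cell cannot be told apart in bulk muscle.

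The contractile genes that define slow fibers had larger fold changes than any of the 10 regulators where they passed the test. Of 8 slow-fiber genes tested 6 rose, beside 5.06% of all genes tested, and the median log2 fold change over the 8 was 3.64. Atp2a2, the calcium pump of slow fibers, had 115 and 40.6 FPKM in Old 1 and Old 2, against 7.98 in Young 1 and 15.97 in Young 2. The 2 tested slow-fiber genes that did not pass were Mb and Casq2. Mb went the other way, with lower scaled values in both old samples (log2 fold change -0.68, limma adjusted p = 0.28). The scaled groups of Casq2 overlapped. Of 9 tested fast-fiber genes 7 did not pass, and the other 2, Myh1 and Tnnt3, were listed at 0 in both young and in both old samples respectively, so no direction is given for them. The part of the slow-fiber genes' change in the values of the members was not tested.

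Other genes of the pathway were described by 3 lists of calcineurin regulators and scaffolds, of NFAT and MEF2 factors with their kinases and deacetylases, and of other fiber-type transcription regulators. The first list is not given in full, so it gets no count, and only the relatives of members are described from it. Ppp3cc, Rcan2, Myoz1 and Myoz3 had log2 fold changes of 0.16, -0.16, -0.14 and 0.18, none of which passed (adjusted p = 0.216, 0.413, 0.729 and 0.22 from limma). In the second list 18 of 22 were tested, 2 rose and 0 fell, with a median log2 fold change of 0.04, against 5.06% higher and 7.5% lower over all genes tested. Of 18 tested in the third list 1 rose and 4 fell, with a median of -0.15, beside the same shares over all genes. Over all genes tested the median was -0.01.

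Hdac4, a deacetylase that holds MEF2 factors inactive, had 14.7 FPKM in Old 1 and 7.51 in Old 2, against 3.80 in Young 1 and 7.37 in Young 2. Its ratio was 1.99 and 1.98 in the 2 pairs of samples, and its log2 fold change was 0.88 (limma SE 0.08, adjusted p = 0.0281). Homer1, a scaffold protein of calcium signaling, rose by 0.53 on the log2 scale (limma SE 0.09, adjusted p = 0.0485). Thrb, a thyroid hormone receptor, was the 1 gene of the third list that rose, by 0.42 (limma SE 0.06, adjusted p = 0.0425).

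The 4 genes of the third list that fell were Nrip1, Vgll2, Ppargc1a and Ppard. Nrip1, a corepressor of oxidative genes, had 6.75 FPKM in Old 1 and 3.41 in Old 2, against 7.17 in Young 1 and 13.4 in Young 2, and a log2 fold change of -0.89 (limma SE 0.09, adjusted p = 0.0303). Vgll2, a muscle cofactor of TEAD proteins, had 45.6 and 23.4 FPKM in Old 1 and Old 2, against 38.95 in Young 1 and 77.2 in Young 2, and a log2 fold change of -0.72 (limma SE 0.09, adjusted p = 0.0347). Its partner Tead1 is described above at 0.861 and 0.857 in the pairs of samples, where Vgll2 was at 0.591 and 0.60. Ppargc1a, the PGC-1alpha coactivator of mitochondrial genes, and Ppard, a nuclear receptor of oxidative fibers, fell by 0.69 and 0.56 on the log2 scale (adjusted p = 0.036 and 0.043 from limma). The 7 named calls kept their direction in all 15 fits, but all 7 were lost without Old 2, without Young 1, with the deposited values unscaled, without the filter on low values and without the trend. With quantile normalization Vgll2 alone of the 7 passed, and Homer1 was also lost without Old 1. With cyclic loess, chosen after seeing the data, Homer1 and Thrb lost the call as well (limma adjusted p = 0.0551 and 0.0674). Fits that changed only the filter, the trend or the blocks could not turn the direction of these 7 genes.

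**Figure D5:**
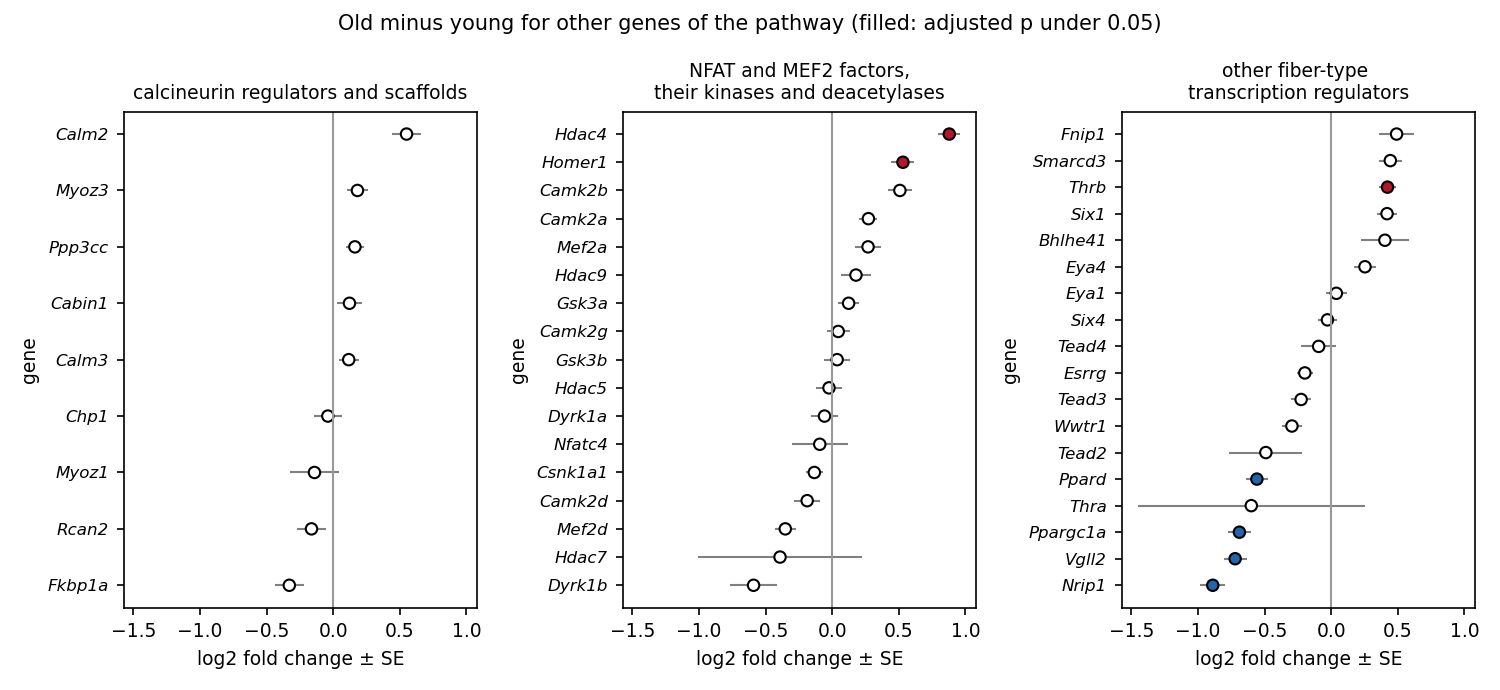
log2 fold change, old minus young, with its standard error for the tested genes of the 3 lists (gene on the y axis), the first not in full, leaving out genes listed at 0 in a sample. Filled symbols passed an adjusted p under 0.05: Hdac4, Homer1 and Thrb higher, and Nrip1, Vgll2, Ppargc1a and Ppard lower.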

How the data were processed

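RNA was taken from TA muscle and sequenced as mRNA libraries. The files used here hold 2 samples per age, and the series' design text speaks of 3. After trimming and removal of PCR duplicates, the authors aligned reads to mm10 by TopHat2 (version 2.0.10) with RefSeq annotation. The deposited unit is FPKM, estimated by Cufflinks for every locus of a sample. The submitters' processing notes also name Cuffdiff (version 2.1.1), whose calls were not used. The tables as used here stop within chromosomes 7 or 8 in text order (1, 10, 11 and so on), and 1 incomplete line per sample was dropped, as were up to 542 loci that lacked a value in a sample.

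Loci of one symbol were summed. Each sample was divided by its median over genes with at least 1 FPKM in all 4 samples, relative to the geometric mean of the medians. log2(scaled FPKM + 1) was compared with limma 3.58.1 in R 4.3.3 (trend, two-sided, Benjamini-Hochberg, adjusted p under 0.05), using genes whose deposited FPKM reached 1 in 2 or more samples. The fit was also run on simulated data with independent noise of the same spread for every gene. The real values are less regular, so that run does not bear on how stable the calls are here. The pseudocount makes fold changes of low genes too small. Whole reads could not be recovered, so the depth is unknown and no count test was run.

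The members and lists were chosen with earlier results of these data known. The text names all 10 members and, of each pathway list, up to 4 genes past the threshold in each direction with both old samples on one side of both young samples. Older symbols were matched through RefSeq names. One list gene is not reported here, and the counts over the lists leave it out. Among the genes not analysed here were Nfatc3, Nfat5, Sox6 and Yap1. Alternatives were unscaled values, quantile normalization, a pseudocount of 0.1, other filters, the highest locus per symbol, no trend, blocks by replicate number and by crossed pairs (samples of like FPKM scale), a 2-fold limit, and leaving out each sample. Cyclic loess was added after seeing the data. Python 3.11.15 and matplotlib 3.10.9 made tables and figures.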

Additional observations from a re-analysis of the deposited data

How the results depend on the processing

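The number of members past the threshold (1) stayed at 1 with a pseudocount of 0.1, without the filter, with at least 1 FPKM in all 4 samples and with the highest locus per symbol. It moved to 0 with the deposited values unscaled, quantile normalization and no trend, to 4 with cyclic loess (chosen after seeing the data) and to 6 when crossed pairs formed the block, and it was 0 to 0 when 1 sample was left out. Under the replicate block, which pairs equal numbers, it was 0, that of the lists 8 (none of the 7 named regulators) and that of all genes 43. The deviations of same-numbered samples had a correlation of -0.903 across genes, so equal numbers deviated in opposite directions. The labels do not say whether samples of equal number share anything else, such as a preparation.

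Over the slow-fiber, fast-fiber and 3 pathway lists, as far as given, 15 genes passed (2 of them, Myh1 and Tnnt3, listed at 0 in both samples of one age), 8 with unscaled values, 9 with quantile normalization, 23 with cyclic loess, 8 without the filter, 7 without the trend, 45 when crossed pairs formed the block, and 0 to 24 with 1 sample left out. Over all genes 1289 passed, 31 with unscaled values, 307 with quantile normalization, 2530 with cyclic loess, 301 without the filter, 2421 with at least 1 FPKM in all 4 samples, 265 without the trend, 6725 when crossed pairs formed the block, and 1 to 2241 with 1 sample left out. Higher calls were 40.3% of all calls, and 58.1% with unscaled values. Leaving out 1 sample leaves a lone sample assumed to vary like the others. The causes of these moves were not tested.

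For single members, 107 of the alternative fold changes kept their direction and side of the threshold, 8 of Ppp3ca lost the call and 8 of Ppp3cb, Ppp3r1, Nfatc1, Rcan1 and Tead1 gained one. The direction turned for 3: Ppp3r1 at 0.00046 without Young 1 (range -0.13 to 0.00046 with 1 sample left out), and Tbx15 at 0.024 without Old 1 and 0.028 without Young 1 (range -0.088 to 0.028). Fits that changed only the filter, the trend or the blocks kept the same fold change by design and could not turn a direction. No member passed 2-fold in both crossed pairs either.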

Other observations

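Outside the named genes, some more of the second list were singled out after their values were seen. Dyrk1b, a kinase of the family that phosphorylates NFAT, had 35.8 FPKM in Old 1 and 13.4 in Old 2, against 20.4 in Young 1 and 55.5 in Young 2, ratios of 0.644 and 0.656 in the pairs of samples with like scale (log2 fold change -0.59, limma SE 0.18, adjusted p = 0.124). Mef2d, one of the MEF2 factors that act with NFAT, was at 0.768 and 0.782 in the same pairs (log2 fold change -0.35, limma SE 0.08, adjusted p = 0.0743). Mef2c, another of these factors, had 213 FPKM in Old 1, 96.7 in Old 2 and 45.9 in Young 2 and was listed at 0 in Young 1, so no fold is given for it. Mef2a, a further MEF2 factor, went the other way from Mef2d, at 1.205 and 1.203 in these pairs (limma adjusted p = 0.166). Camk2b of the same list was at 1.435 and 1.41 (limma adjusted p = 0.0526).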
